A study of Mus musculus with 6 samples.

Results

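Nuclear factor I (NFI) proteins and the large Maf protein Maf were followed in sorted primary cells of the mouse ovarian surface, across every probe set that the array annotation gives to exactly 1 of Nfia, Nfib, Nfic, Nfix and Maf. These are 5 of the 18193 genes that have such a probe set. The rule returned 29 of the 45037 probe sets that are not controls: 6 for Nfia, 7 for Nfib, 5 for Nfic, 5 for Nfix and 6 for Maf. The cells were primary ovarian surface epithelium (OSE) of virgin FVB/N females aged 8 weeks, cultured for 24 hours and carrying no label of a mutation or transgene. They were stained with ALDEFLUOR, which becomes fluorescent in cells with active aldehyde dehydrogenase (ALDH), with unstained cells and cells given the inhibitor diethylaminobenzaldehyde as controls, and sorted into an ALDH-positive and an ALDH-negative fraction. Each of 3 pools, made from 10 mice each, gave 1 array per fraction, so that there were 3 arrays of each fraction and 6 in all. The RNA was amplified before labelling, and each array is a pool of animals and not a single one.

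The NFI proteins share an N-terminal domain that binds DNA and lets them pair. They recognise a palindrome of the half-site TTGGC and can activate or repress transcription. Nfia is known for its part in the switch of neural progenitors to glia, Nfib for lung maturation and for skin stem cells, Nfic for tooth root formation, and Nfix for fetal muscle and for the quiescence of neural stem cells. Maf is a basic leucine zipper protein that binds a palindrome of the half-site TGCTGA. It is known from lens fibres, helper T cells, macrophages and the interstitial cells of the fetal gonad. Large Maf proteins carry an activation domain, while the small ones (Maff, Mafg and Mafk) lack it and pair with CNC and Bach proteins.

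RefSeq promoter windows, 250 bases before to 50 after a start site on GRCm38.p6, were held for 3 of the 5 genes, namely Nfia (1 window), Nfic (1 window) and Nfix (4 windows). They were searched for the half-sites of both families on both strands, and every match is printed in a stretch of 30 bases with the matched letters in capitals. The stretches are given because they show which members have their own family's or the other family's recognition letters beside a start site. The sequence is that of C57BL/6J, and the mice were FVB/N.
Nfia, chr4:97581963-97581992, plus strand: tgagttagcatcagatgaagctTGCTGAca
Nfix window 1, chr8:84780047-84780076, minus strand: ttctcttgtgtgTGCTGAatcgggtcatag
Nfix window 2, chr8:84775986-84776015, minus strand: ggatcttttgttTTGGCtcaccccaggcgc
Nfix window 3, chr8:84773365-84773394, minus strand: cagaatcaggcgTTGGCtttgccgggtgct
Nfix window 4, chr8:84772859-84772888, minus strand: tgggggcaGCCAAacaTTGGCcagtccgga

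The NFI half-site TTGGC lay in 3 of the 4 Nfix windows, and in neither the Nfia nor the Nfic window. Among all 32851 windows of that length it lay in 46.7%. The full palindrome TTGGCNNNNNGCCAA was in no window of the members and in 0.0365% of all. Window 4 of Nfix held 2 half-sites that face away from each other, GCCAANNNTTGGC, an arrangement searched for after this match was seen and present in 5 of all windows (0.0152%). The Maf half-site TGCTGA lay once in the Nfia window and once in window 1 of Nfix, against 19.5% of all windows. The Nfic window held neither half-site. These are matches of letters and not measured binding.

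One array, the ALDH-negative one of pool 2, was unlike the rest. Its correlation with the other arrays across probe sets was 0.56 to 0.68, while the 5 others correlated with one another at 0.85 to 0.97. Its deposited values had an SD of 1.62, against 2.07 to 2.42 on the others. In pool 3 the 3' minus 5' signal of the Gapdh controls, a sign of RNA quality and of the reach of the amplification, was 3.59 for the ALDH-negative and 5.30 for the ALDH-positive array. It was 0.90 and 1.00 in pool 1, and 2.15 and 1.14 in pool 2. The 10 fixed markers of surface epithelium and mesothelium were all present, and each read higher on the ALDH-positive array of every pair. Their mean log2 level was 7.41 to 7.91 on the ALDH-positive arrays and 3.96 to 4.24 on the ALDH-negative ones, so the ALDH-negative fraction carries less of the labelled cell type's markers.

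On most probe sets of each gene the mean was higher in ALDH-positive cells (44.5% of all probe sets). Those were 7 of 7 for Nfib, 5 of 5 for Nfix, 5 of 6 for Maf and Nfia, and 4 of 5 for Nfic. In 4 of 6 probe sets of Maf and 3 of 7 of Nfib every ALDH-positive array lay above every ALDH-negative one (3.23% of all probe sets), with mean differences of 2.07 to 3.12. The fractions overlapped on the others, and 1 of Maf differed by -0.46. The fractions were also apart on 2 of 5 probe sets of Nfix, 1 of 5 of Nfic and 0 of 6 of Nfia. Nfix read about 1 log2 unit higher in pool 1 on all of its probe sets. Nfia and Nfic differed by less than 0.7 in pool 1 on all of their probe sets. Their brightest probe sets read 6.59 to 7.65 there in the 2 fractions, and 1 of Nfic was too dim to be tested. Values are quantile-normalized log2 signals. Differences are ALDH-positive minus ALDH-negative within a pool, given as the mean and SD of the 3 pools with the standard error (SE) of the fit across all probe sets. The 5 genes were brought together with the fraction differences of these arrays known, so these differences are a description and carry no test. Over the whole table the paired limma fit called 0 of 27022 probe sets at an adjusted p under 0.05 (0%), and 661 (2.45%) at an unadjusted p under 0.05; with array weights, which give unlike arrays less influence, it called 2953 (10.9%). In bulk RNA such as this, fewer cells of a type and less RNA per cell cannot be told apart.

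Of the 29 probe sets, 26 had a mean difference above 0 and 3 below it (28 above 0 in the deposited values and 29 after median centring), where 44.5% of all probe sets lay above 0. In 16 of the 29 the ALDH-positive array was the higher one in all 3 pools (9.9% of all probe sets), and in 10 every ALDH-positive array lay above every ALDH-negative one (3.23% of all probe sets). Those 10 were 4 of Maf, 3 of Nfib, 2 of Nfix and 1 of Nfic, with none of Nfia. In the deposited values and after median centring 11 were apart, and the share over all probe sets was not taken on those scales. No reading is made from these shares, since the choice of genes used this contrast. The filter on dim probe sets, at a mean of 2.73 on the log2 scale, left 25 of the 29. The other 4, of Nfib (1), Nfic (1) and Maf (2), were too dim to be tested and are described with the rest. The filter took the mean over all 6 arrays. Some probe sets lay below its level in the ALDH-negative mean and passed only through the ALDH-positive arrays. For Nfib they were 1434102_at (2.52), 1454834_at (2.62), 1448288_at (2.09) and 1427680_a_at (1.71). For Nfix and Maf they were 1451443_at (2.62) and 1447849_s_at (1.67).

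**Figure D1:**
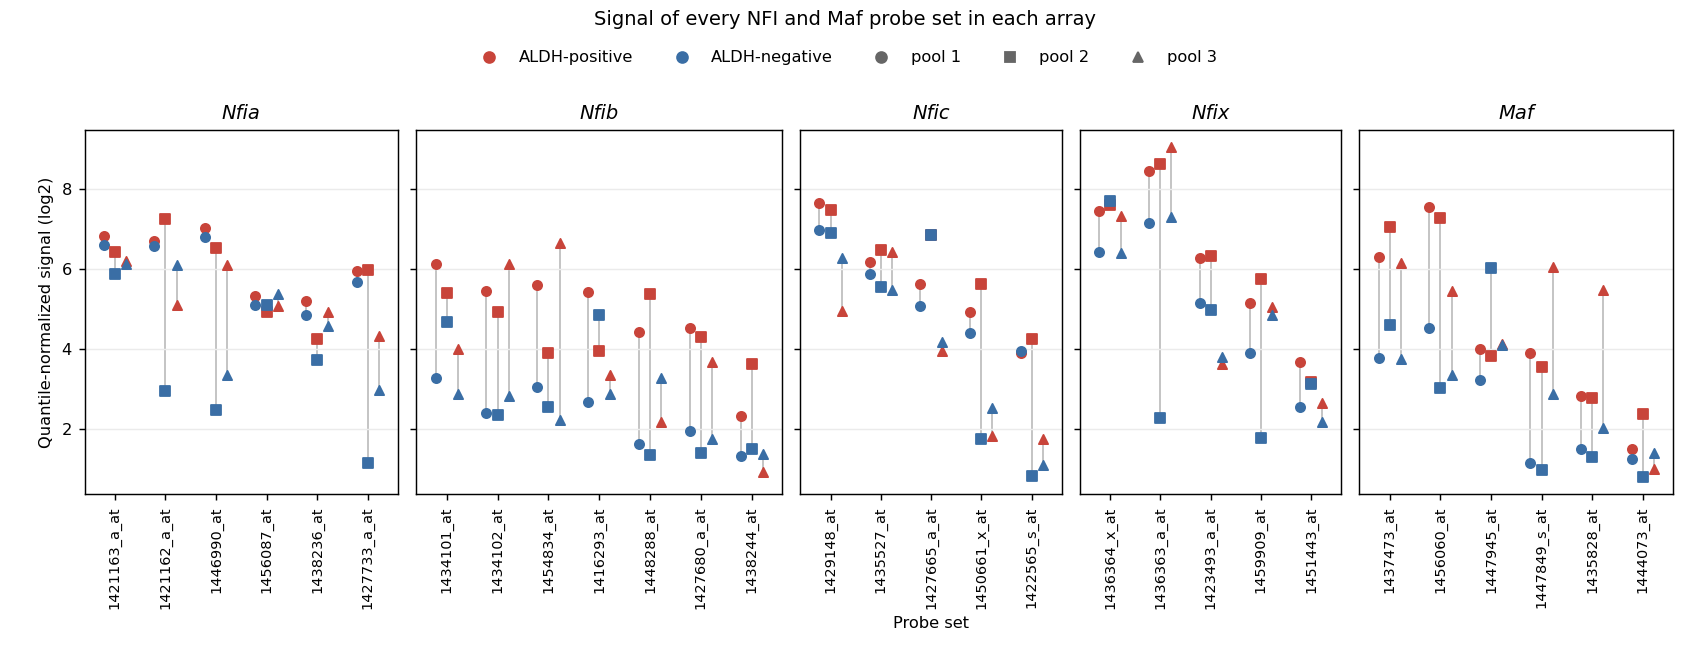
Quantile-normalized log2 signal (vertical axis) of all 29 probe sets (horizontal axis, grouped by gene, brightest first), with ALDH-positive arrays in red, ALDH-negative in blue, a marker shape per pool and a grey line joining the 2 arrays of a pool. The 3 ALDH-positive arrays lie above the 3 ALDH-negative ones in 4 probe sets of Maf, 3 of Nfib, 2 of Nfix and 1 of Nfic, and the blue square of pool 2 lies far below its partner for 1436363_a_at of Nfix and for 3 probe sets of Nfia, among others.

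For Nfib, all 7 probe sets had a mean difference above 0, from 0.76 to 2.98. The probe set 1434102_at read 2.40, 2.35 and 2.82 in ALDH-negative cells of pools 1, 2 and 3, and 5.46, 4.93 and 6.12 in ALDH-positive cells. The fractions did not overlap. Its pool differences of 3.06, 2.58 and 3.30 gave a mean of 2.98 (SD 0.37, SE 0.64, n = 3 pools), or 7.89-fold. The ALDH-negative values lie near or below the filter level, and no detection call was used, so the size of this fold depends on how dim signal was treated.

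A second non-overlapping probe set of Nfib, 1427680_a_at, read 1.96, 1.40 and 1.76 in the ALDH-negative fraction and 4.53, 4.31 and 3.67 in the ALDH-positive one. The mean difference was 2.46 (SD 0.51, SE 0.65). The third, 1454834_at, read 3.06, 2.57 and 2.24 against 5.59, 3.90 and 6.65, a mean difference of 2.76 (SD 1.55, SE 0.78). Its ALDH-positive array of pool 2 was the lowest of the 3 and still lay above all ALDH-negative arrays.

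The brightest probe set of Nfib, 1434101_at, separated the fractions less. It read 3.28, 4.68 and 2.88 in the ALDH-negative fraction and 6.13, 5.39 and 4.01 in the ALDH-positive one, and the ALDH-negative array of pool 2 lay above the ALDH-positive array of pool 3. The mean difference was 1.56 (SD 1.13, SE 0.72). Of the other probe sets, 1416293_at gave 2.73, -0.90 and 0.46 in the 3 pools, and 1448288_at gave 2.78, 4.03 and -1.10. The 2 thus turned sign in different pools, although all 6 tested probe sets lay between 2.54 and 3.06 in pool 1. The dim probe set 1438244_at, which was not tested, differed by 0.88 (SD 1.27) and by 1.00 in pool 1.

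Nfix read higher in ALDH-positive cells in the mean on all 5 probe sets, by 0.55 to 3.14. In pool 1 the 5 differences lay between 1.03 and 1.31. The brightest probe set, 1436364_x_at, read 6.42, 7.69 and 6.40 in the ALDH-negative fraction and 7.45, 7.59 and 7.33 in the ALDH-positive one. The 3 ALDH-positive values lie within 0.3 of each other. After quantile normalization the highest value of all was that of the ALDH-negative array of pool 2. As deposited, that array read 6.3, and the ALDH-negative arrays of pools 1 and 3 read 6.9 and 6.2. The ALDH-positive arrays read 7.8, 8.0 and 7.5 there, so the fractions did not overlap on that scale. The mean difference of 1436364_x_at after quantile normalization was 0.62 (SD 0.63, SE 0.66), and 0.98 over pools 1 and 3. It was larger on the other scales, at 1.29 as deposited and 1.46 with median centring.

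The probe set 1436363_a_at of Nfix, annotated from the same sequence record, behaved otherwise on that array. It read 7.13, 2.27 and 7.28 in the ALDH-negative fraction and 8.44, 8.61 and 9.05 in the ALDH-positive one. The fractions did not overlap, but the mean of 3.14 (SD 2.78, SE 1.04) rests on a pool 2 difference of 6.34, and over pools 1 and 3 it was 1.54. For 1459909_at the fractions did not overlap either. The ALDH-negative values were 3.90, 1.79 and 4.86 and the ALDH-positive ones 5.16, 5.74 and 5.05, with a difference of 1.80 (SD 1.94, SE 0.86) and of 0.73 over pools 1 and 3. In pool 3 the step of 1459909_at was only 0.19. The remaining probe sets, 1423493_a_at and 1451443_at, differed by 0.78 (SD 0.81) and 0.55 (SD 0.54), and their fractions overlapped.

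Nfia differed little between the fractions on its brightest probe set after quantile normalization. There, 1421163_a_at read 6.59, 5.88 and 6.13 in the ALDH-negative fraction and 6.82, 6.43 and 6.21 in the ALDH-positive one. The ALDH-positive array was slightly the higher in each pool, and the ranges overlapped (difference 0.28, SD 0.24, SE 0.63). The difference was 0.71 in the deposited values and 0.88 after median centring. In pool 1 all 6 probe sets gave a difference of 0.14 to 0.36.

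The larger mean differences of Nfia came from pools 2 and 3. The probe set 1446990_at read 6.79, 2.47 and 3.36 in the ALDH-negative fraction and 7.03, 6.53 and 6.10 in the ALDH-positive one. Its ALDH-positive values are close to each other, while the ALDH-negative value of pool 1 stands far above those of pools 2 and 3 (difference 2.35, SD 1.94, SE 0.86, and 1.49 over pools 1 and 3). In 1427733_a_at the pool differences were 0.26, 4.81 and 1.36, and in 1421162_a_at they were 0.14, 4.28 and -1.01. The mean of the latter was 1.14 (SD 2.78, SE 1.05) and turned to -0.44 over pools 1 and 3. The probe set 1456087_at differed by -0.09 (SD 0.28) and 1438236_at by 0.41 (SD 0.11). The difference of 1456087_at was 0.09 in the deposited values and 0.26 after median centring.

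For Nfic, the brightest probe set 1429148_at read 6.96, 6.88 and 6.27 in the ALDH-negative fraction and 7.65, 7.46 and 4.95 in the ALDH-positive one. It was the higher in ALDH-positive cells in pools 1 and 2 and the lower in pool 3, where the difference was -1.33. The mean was -0.02 (SD 1.13, SE 0.72). It lay above 0 in the deposited values (0.48) and in median-centred arrays (0.64).

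One probe set of Nfic, 1435527_at, kept the fractions apart. It read 5.88, 5.55 and 5.48 in the ALDH-negative fraction and 6.17, 6.47 and 6.42 in the ALDH-positive one. Its difference of 0.72 (SD 0.37, SE 0.64) is small beside those of Nfib, and the gap between the highest ALDH-negative and the lowest ALDH-positive array was that within pool 1 (0.29). The probe set 1427665_a_at differed by 0.11 (SD 0.40). The probe sets 1450661_x_at and the dim 1422565_s_at, both annotated from 1 sequence record, had pool 2 differences of 3.86 and 3.41, against 0.51 and -0.05 in pool 1 and -0.70 and 0.64 in pool 3. Over pools 1 and 3 their means of 1.22 and 1.33 became -0.10 and 0.29.

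Among the 5 genes, Maf had the differences that varied least between pools when averaged over its probe sets (SD 0.05). That average joins unlike values, since in pool 2 the single probe sets ran from -2.19 (1447945_at) to 4.24 (1456060_at). On the brightest probe set of Maf, 1437473_at, ALDH-negative cells read 3.78, 4.59 and 3.76, and ALDH-positive cells 6.30, 7.05 and 6.16. The fractions did not overlap. The pool differences of 2.52, 2.46 and 2.40 gave a mean of 2.46 (SD 0.06, SE 0.63, n = 3 pools), or 5.50-fold. The SE exceeds what the SD alone would give because limma moderates each variance with those of all other probe sets.

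The probe set 1456060_at of Maf read 4.53, 3.02 and 3.36 in the ALDH-negative fraction and 7.54, 7.26 and 5.46 in the ALDH-positive one. Its mean difference of 3.12 (SD 1.07, SE 0.71) corresponds to 8.67-fold, and over pools 1 and 3 it was 2.56. The probe set 1447849_s_at read 1.15, 1.00 and 2.87 against 3.90, 3.55 and 6.05, a difference of 2.83 (SD 0.32, SE 0.64). In each fraction pool 3 was the highest, so that the step was similar in the 3 pools at different levels. Pool 3 was also the highest in each fraction on the dim probe set 1435828_at, which read 1.51, 1.31 and 2.04 against 2.83, 2.78 and 5.47 (difference 2.07, SD 1.17).

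The remaining probe sets of Maf did not share this pattern. In 1447945_at the ALDH-negative cells read 3.23, 6.02 and 4.10 and the ALDH-positive cells 4.00, 3.84 and 4.13. The difference was -0.46 (SD 1.54, SE 0.78), with the highest value on the ALDH-negative array of pool 2. It was 0.40 over pools 1 and 3. The dimmest, 1444073_at, stayed below 2.4 on each array and differed by 0.47 (SD 1.02).

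**Figure D2:**
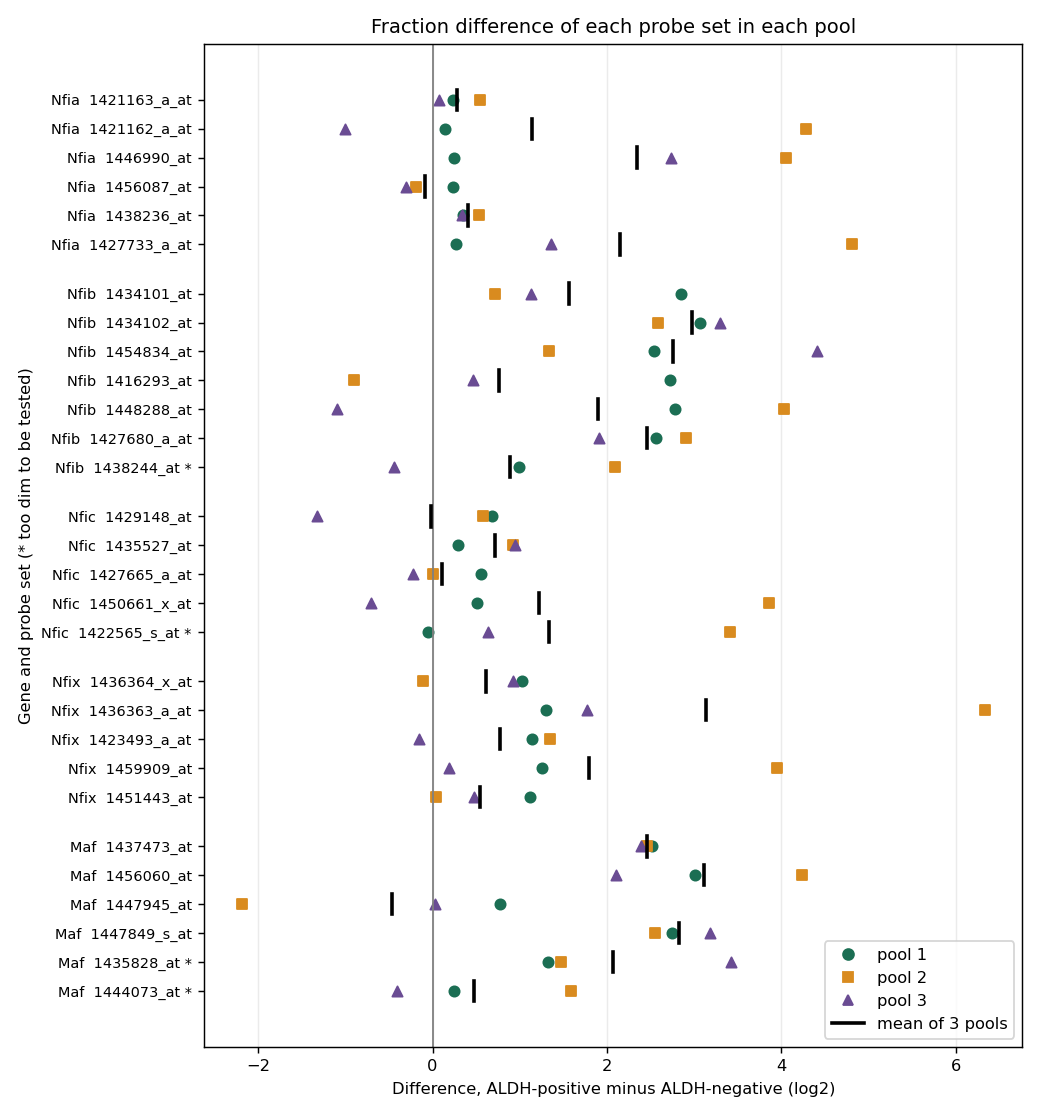
Log2 difference of ALDH-positive minus ALDH-negative cells (horizontal axis) in pools 1, 2 and 3 (circle, square, triangle) for each probe set (rows, grouped by gene), with a black bar at the mean of the 3 pools. The pool 1 differences of the tested probe sets form a column within each NFI gene, at 0.14 to 0.36 for Nfia and 2.54 to 3.06 for Nfib. Off these columns lie the dim, untested 1438244_at of Nfib (1.00) and 1422565_s_at of Nfic (-0.05). Pools 2 and 3 scatter, while 1437473_at of Maf has its 3 pools between 2.40 and 2.52.

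Averaged over all its probe sets, each gene had the following paired differences. Maf gave 1.77, 1.69 and 1.79 in pools 1, 2 and 3 (mean 1.75, SD 0.05). Nfib gave 2.50, 1.82 and 1.38 (mean 1.90, SD 0.56), above 0 in each pool. Nfix gave 1.17, 2.31 and 0.64 (mean 1.38, SD 0.86) and was also above 0 in each pool. For Nfia the values were 0.24, 2.34 and 0.53 (mean 1.04, SD 1.14), and for Nfic 0.40, 1.76 and -0.13 (mean 0.67, SD 0.97). In the order of these means, from Nfib through Maf, Nfix and Nfia to Nfic, neighbours lie closer together than the SD over pools of at least 1 of the pair. Without pool 2 the means were 1.94 for Nfib, 1.78 for Maf, 0.91 for Nfix, 0.39 for Nfia and 0.13 for Nfic.

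The agreement between probe sets of a gene depended on the pool. Probe sets of 1 gene share the RNA of an array and are not replicates. In pool 1 the SD of the difference over the tested probe sets was 0.07 for Nfia, 0.20 for Nfib, 0.16 for Nfic and 0.11 for Nfix, but 1.01 for Maf, where 1447945_at stood at 0.77. In pool 2 the SDs were 2.27, 1.76, 1.72, 2.77 and 2.76 for Nfia, Nfib, Nfic, Nfix and Maf, and in pool 3 they were 1.33, 1.98, 0.96, 0.74 and 1.35. Each of the 5 genes thus had its closest agreement in pool 1. This was common on the arrays: of 996 genes with at least 4 tested probe sets, 90.7% had their smallest SD in pool 1, with medians of 0.31, 1.88 and 0.83 in pools 1, 2 and 3. The 2 arrays of pool 1 also correlated the highest of the 3 pairs (0.967, against 0.586 in pool 2 and 0.908 in pool 3). The part of RNA quality in this was not tested.

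**Figure D3:**
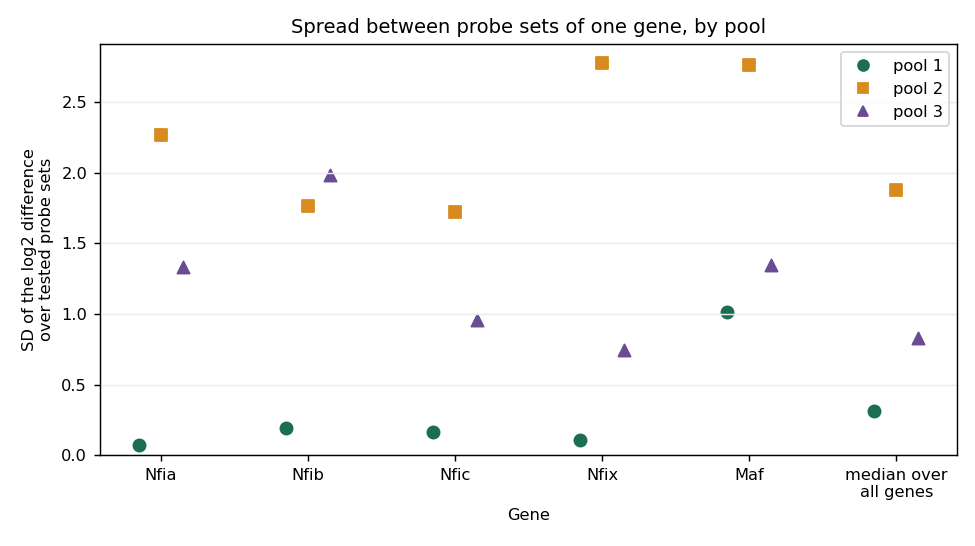
SD of the log2 fraction difference over the tested probe sets of a gene (vertical axis) for the 5 genes and, at the right, the median over 996 genes with at least 4 tested probe sets, by pool. Pool 1 has the lowest SD in every column, and its value for Maf (1.01) lies above that of the 4 NFI genes (0.07 to 0.20).

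Across the 6 arrays, the probe sets of a gene followed each other in part. The median correlation between 2 probe sets of a gene was 0.73 for Nfia (15 pairs, from -0.26 to 0.97), 0.55 for Nfib (21 pairs, from 0.00 to 0.93) and 0.54 for Nfic (10 pairs, from -0.05 to 0.95). It was 0.43 for Maf (15 pairs, from -0.51 to 0.96) and 0.11 for Nfix (10 pairs, from -0.19 to 0.96). Without the ALDH-negative array of pool 2 the median was 0.64 for Nfix and 0.35 for Nfia, so that array set the order of these 2 genes. In Nfix the probe sets 1436364_x_at and 1436363_a_at correlated at -0.19 over 6 arrays and at 0.92 over the 5 others. These correlations are descriptions over arrays that share pools.

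The genes whose pattern over the 6 arrays was most like that of each member's brightest probe set were found among 12813 other genes by Pearson correlation. For Maf they were Wt1 (r = 0.983), a transcription factor of the coelomic epithelium, the uroplakin Upk1b (0.983) and the death receptor Fas (0.976). Without the ALDH-negative array of pool 2 these were 0.989, 0.982 and 0.982. For Nfib they were the small heat shock gene Hspb7 (0.989), Ctnnb1 (0.967), which encodes beta-catenin, and the interleukin Il1f9 (0.967). For Nfix they were the lipopolysaccharide coreceptor Cd14 (0.979), the claudin Cldn15 (0.974) and Tdrp (0.967). For Nfia they were the export factor Nxt1 (0.981), the ciliary gene B9d1 (0.978) and the splicing regulator Ptbp3 (0.977), and for Nfic they were Cyp4f16 (0.997), Ppp1r18 (0.983) and the mitochondrial ribosomal gene Mrpl55 (0.982). With 6 arrays that share 3 pools, 8 to 27 genes exceeded 0.95 for each member. The brightest probe sets of the members themselves correlated at 0.82 for Nfib with Nfix, 0.79 for Nfib with Maf and 0.75 for Nfix with Maf, and at -0.12 for Nfia with Nfix. The values with Nfix hold for 1436364_x_at only, which read 7.69 on the ALDH-negative array of pool 2 after quantile normalization. The nearly as bright 1436363_a_at read 2.27 there and correlated with it at -0.19 over the 6 arrays. Correlations between members were not taken for other probe sets or without that array.

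The other Maf proteins had probe sets for 4 of the 6 genes looked for, and 3 were tested. None passed the threshold in the fit of the whole table (limma adjusted p = 0.895 for each of the 3). No probe set of the table passed in that fit, where the lowest limma adjusted p was 0.765. That none passed thus says nothing particular about these genes or those of the lists below. The small Maf gene Maff differed by -0.58 (SE 0.67), which became 0.15 after median centring. Mafk differed by -0.77 (SE 0.70) and Mafg by 0.83 (SE 0.81). Mafk read 6.56, 8.05 and 6.44 in the ALDH-negative fraction and 6.39, 6.15 and 6.21 in the ALDH-positive one, the reverse order of Maf without overlap. That difference was -0.16 in the deposited values and 0.00 in median-centred arrays, so its direction depended on the scaling. Mafg owed its value to pool 2 (2.75), with 0.02 and -0.27 in pools 1 and 3. Nrl, a large Maf protein of photoreceptors, was dim and not tested. The median difference was -0.58 for these 3 genes, with -0.08 over all 12814 genes tested, and it was -0.21 without pool 2 and 0.15 in median-centred arrays.

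Among the CNC and Bach partners of small Maf proteins, 5 of 6 genes were tested. None passed, as no probe set of the table did, and 3 lay higher and 2 lower in the mean (median 0.58). The oxidative stress regulator Nfe2l2 differed by 1.56 (SE 1.12), from 0.02, 5.09 and -0.44 in the 3 pools. Bach2, a repressor known from B cells, differed by -1.21 (SE 1.05), from 1.37, -4.16 and -0.83. Nfe2l3 stood at 0.62 (SE 0.67) and the repressor Bach1 at 0.58 (SE 0.83). The pool 2 value was the largest in size for Nfe2l2, Bach2 and Bach1, and without that pool the median of the list was 0.00.

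Genes linked to NFI proteins in glia, neural stem cells, skin and tooth were tested for 7 of 9. None passed, as no probe set of the table did. In the mean 4 lay higher and 3 lower, and the median was 0.12. Its direction was not stable, at -0.12 without pool 1, -0.35 without pool 3, -0.07 with no filter and 0.43 in median-centred arrays. Sox9, which acts with Nfia in glia, read 3.40, 3.19 and 3.31 in the ALDH-negative fraction and 4.16, 3.94 and 5.03 in the ALDH-positive one, without overlap (difference 1.08, SE 0.65, limma adjusted p = 0.895). The mean over its 3 probe sets was 0.30. Apcdd1, a Wnt inhibitor described downstream of that pair, read lower in ALDH-positive cells in each pool, by -1.93, -5.17 and -0.80 (mean -2.63, SE 0.93, limma adjusted p = 0.895), and by -0.88 over its 6 probe sets. The polycomb methyltransferase Ezh2 differed by 1.28 (SE 0.98) and by -0.15 without pool 2. Mmd2 differed by -1.16 (SE 0.76), from 0.33, -2.48 and -1.33 in the 3 pools, and by -0.50 without pool 2.

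Of 8 genes linked to Maf in lymphocytes, myeloma cells and lens, 4 were tested (median -0.71, with 1 higher and 3 lower). None passed, as no probe set of the table did. The cyclin Ccnd2 differed by 0.30 (SE 0.67), the integrin Itgb7 by -0.88 (SE 0.85), and the crystallins Cryaa and Crybb1 by -0.54 (SE 0.75) and -1.56 (SE 1.06). Without pool 2 each of the 4 changed sign, to -0.08 for Ccnd2, 0.21 for Itgb7, 0.25 for Cryaa and 0.08 for Crybb1, so that 3 lay higher and 1 lower (median 0.14). Ccr1 and the interleukins Il4, Il10 and Il21 were too dim to be tested.

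**Figure D4:**
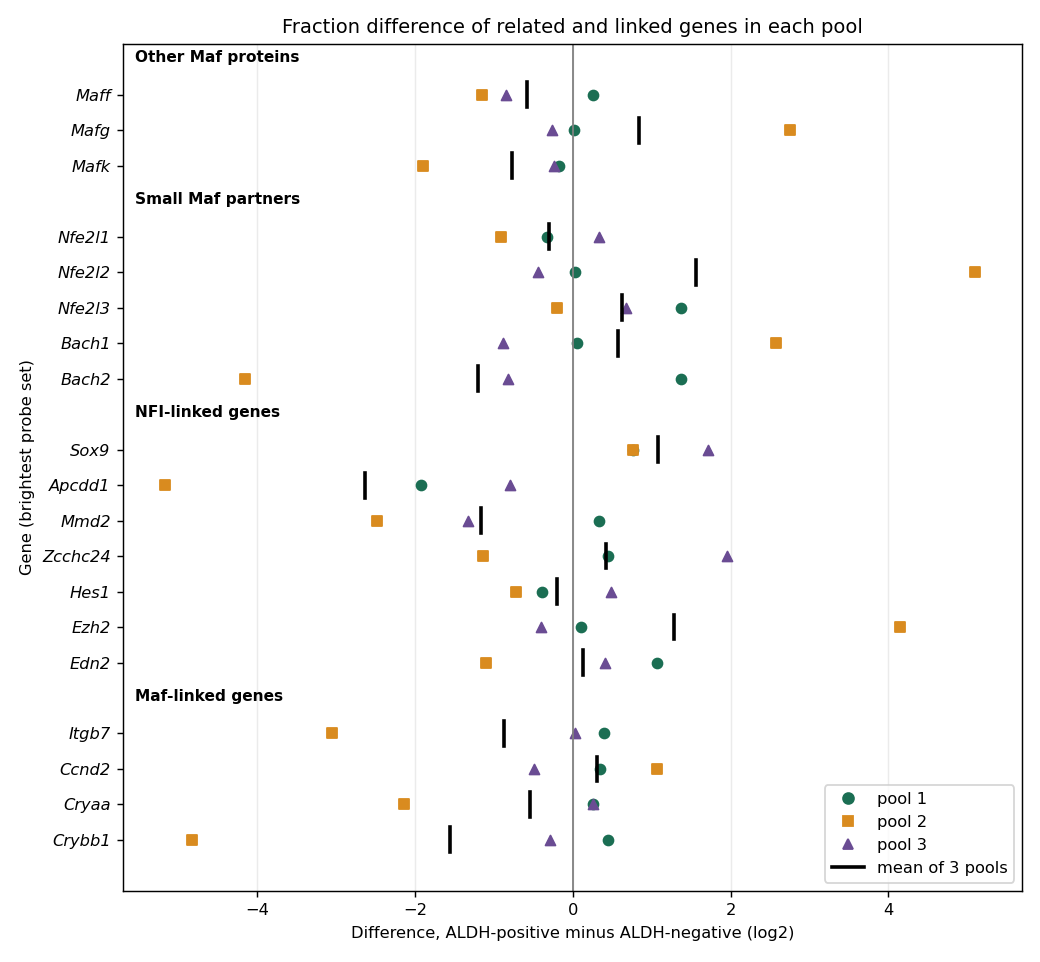
Log2 difference of ALDH-positive minus ALDH-negative cells (horizontal axis) in pools 1, 2 and 3 (circle, square, triangle) and their mean (black bar) for the tested genes of the 4 lists (rows, brightest probe set per gene). None of the 19 genes passed the test, and neither did any of the 27022 probe sets of the table. Sox9 (0.76, 0.76 and 1.72) and Apcdd1 (-1.93, -5.17 and -0.80) lie on 1 side of 0 in all pools, as does Mafk, whose mean was 0.00 after median centring.

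Markers of other cell types were read beside these values. The stroma list read higher alongside Maf and Nfib, with none past the threshold, as no probe set of the table was. On their brightest probe sets 6 of 6 tested markers (7 on the array) had a mean difference above 0, against 5893 of all 12814 genes tested. The mean log2 level of the list was 5.46 to 5.77 on ALDH-positive and 3.67 to 4.84 on ALDH-negative arrays. In pool 3 the median difference of that list was 0.71, against 0.03 over all genes tested. Col1a1 (3.63, 0.43 and 1.78 in pools 1, 2 and 3), Col3a1 (4.04, 5.31 and 2.35) and Thy1 (1.23, 1.83 and 2.35) were higher in each pool. Their fractions were apart, as for 455 of the 12814 genes tested. The ALDH-negative mean of Thy1 (2.68) lay below the filter level, so it passed only through the ALDH-positive arrays. Col1a2 (1.45, 1.56 and -1.17), Dcn (1.99, 1.21 and -0.67) and Pdgfra (0.98, 0.43 and -0.36) were higher in pools 1 and 2 and lower in pool 3, and Lum was below the filter level. Averaged over all probe sets of a gene, the differences were 0.38 for Col1a2, 0.34 for Dcn and -0.01 for Pdgfra. They were 2.01 for Col1a1 and 3.85 for Col3a1, and Thy1 has 1 probe set. The surface epithelium list also read higher in ALDH-positive cells, by the levels given with the arrays. The part of either list in the differences of Maf and Nfib was not tested. Leukocyte markers, which include macrophages, overlapped between fractions (2.15 to 3.09 against 2.34 to 3.07), with 1 of 4 tested markers higher, and Lyz2, Adgre1, Itgam and Mrc1 below the filter level. Endothelial markers also overlapped (2.28 to 2.71 against 2.53 to 3.18), with 1 of 3 tested markers higher, and Cdh5, Tek, Emcn and Tie1 below that level. The higher one was Kdr, by 2.62, 1.43 and 0.26 in pools 1, 2 and 3, while Pecam1 (-0.01) and Erg (-1.28) were lower in the mean. Steroidogenic markers were at 7.75 to 8.15 on the ALDH-positive arrays, at 8.30 and 8.58 on the ALDH-negative arrays of pools 3 and 1, and at 4.76 on that of pool 2. Granulosa markers were at 5.18 to 5.78 on the ALDH-positive arrays, at 5.21 and 6.11 on the ALDH-negative arrays of pools 3 and 1, and at 4.04 on that of pool 2.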

How the data were processed

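The authors' deposited table gives 1 value per probe set and array, taken as log2 signal from its range (0.035 to 13.05). Its scale, summarisation and normalization are not stated in the labels used here; per the series design, Affymetrix arrays were analysed with GeneSifter and a paired SAM test. After removal of 64 control probe sets the arrays were quantile normalized, since their medians differed by 0.46. Symbols came from GEO's platform annotation, updated by Entrez identifier through RefSeq (34945 probe sets with 1 symbol, 932 with several, 9160 with none; none changed). The lower 40% by mean was removed, and 27022 probe sets were fitted with limma 3.58.1 in R 4.3.3 with pool as a blocking term and p-values adjusted by Benjamini-Hochberg. The fit was tested on simulated data with the same noise level on all arrays, so that test does not cover arrays of unequal quality. The pairing is that of the series design; deviations of same-numbered arrays correlated at 0.34, -0.19 and 0.31. The pools are separate animals. The p-values set each difference against a variance over pools that limma moderates with those of all other probe sets. The number of arrays limits the precision. Where 1 value per gene was needed, the brightest single-gene probe set was used. Named are all member probe sets, all other Maf genes, up to 4 genes of largest difference per linked list, and the 3 genes most like each member; marker genes, further list genes and the opposed half-sites were named after their values were seen. Members and lists were chosen with earlier results of these data known. Alternatives were deposited values, median centring, no block, array weights, other filters, probe set means, and leaving out each pool or the odd array.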

Additional observations from a re-analysis of the deposited data

How the results depend on the processing

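Of 45 alternative values of the 5 members' brightest probe sets, 35 moved by less than the SD over pools. That SD was 0.06 for Maf but 1.13 for Nfib and Nfic, so larger shifts count as unmoved for Nfib and Nfic. The 10 values that moved, all larger in the direction of ALDH-positive cells except the last, were as follows. In the values as deposited the differences were 0.71 for Nfia, 1.29 for Nfix and 2.75 for Maf, and in median-centred arrays they were 0.88, 1.46 and 2.92, where the median over tested probe sets shifted from -0.04 to 0.22. Dropping both the block and the odd ALDH-negative array (pool 2) gave 2.73 for Maf. Averaging all probe sets gave 1.04 for Nfia, 1.38 for Nfix and 1.75 for Maf. Within its SD, Nfic ran from -0.56 with array weights to 0.67 over all probe sets, with a change of sign. Nfib ran from 0.92 without pool 1 to 2.10 without the odd array and the block. Above 0 lay 26 of the 29 probe sets after quantile normalization, 28 as deposited and 29 after median centring.

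The number of probe sets called over the whole table was 0 in the paired fit, 0 to 7 when 1 pool was left out (7 without pool 1) and 2953 of 27022 (10.9%) with array weights. At an unadjusted p under 0.05 it was 661, between 944 and 1961 when 1 pool was left out, with 1232 without pool 2 and 1961 without pool 1, and 6629 with array weights. Without the replicate block it was 542, with 0 after adjustment, and the members' differences were unchanged by construction, at 0.28, 1.56, -0.02, 0.62 and 2.46 for Nfia, Nfib, Nfic, Nfix and Maf.

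Among the lists, the median of the other Maf genes was 0.15 in median-centred arrays. That of the small Maf partners was 0.00 to 0.59 when 1 pool was left out (0.24 without pool 1), 0.12 without that array and the block, -0.006 with array weights, and 0.14 with no filter and with the lower 20% removed. The causes were not tested. No detection call or measured background was used, so folds of Nfib and Maf against values near or below the filter level of 2.73 are uncertain in size.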
